A study of Mus musculus with 24 samples.

Results

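Expression of 39 genes of the cell cycle and of DNA replication was followed in mouse adipose tissue. The genes were chosen by symbol, and all 39 were found among the 24421 gene symbols of each library's count table. They fall into 8 role classes: 5 grouped as regulators of the step from G1 into S phase, 7 genes of replication licensing, 4 of DNA synthesis, 9 mitotic cyclins and kinases, 2 acting with the anaphase promoting complex, 6 of the spindle, 4 of the centromere, and the pair Top2a and Mki67. The first class also holds Foxm1 and Mybl2, regulators of mitotic genes.

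Adipose tissue was taken from C57BL/6 mice at 2 months of age for total RNA-seq, and the fat depot is not named. Mice were wild type (WT) or carried a STAT5B-Y665F or STAT5B-Y665H point mutation, in which a tyrosine of this cytokine-activated transcription factor is replaced by phenylalanine or by histidine. The labels do not say whether a mutant mouse carried it on 1 or both copies of the gene, and all mice shared the strain and age. There were 4 libraries for each sex and genotype, so 24 in 6 groups.

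In a dividing cell, E2F factors switch on genes for DNA synthesis as the cell leaves G1, and the MCM complex is loaded on DNA before replication starts. A later wave of genes, held off in resting cells by the DREAM complex and raised by MYBL2 and FOXM1, encodes the cyclins, kinases, spindle motors and centromere proteins of mitosis. Mature fat cells do not divide, so such transcripts in adipose tissue usually come from other cells, such as progenitors, blood vessel cells and immune cells. In bulk tissue, fewer dividing cells and less RNA per cell cannot be told apart.

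Library depth ran from 21.0 to 41.3 M gene counts, with M for 1000000. Levels are counts per M gene counts (CPM). A member had between 14 and 2392 counts in a library. The summed CPM of 8 adipocyte genes, among them Adipoq and Plin1, ranged from 6233 to 24982 over the libraries. WT male 4 stood apart: 20 testis germ cell genes summed to 1596 CPM in it, against 13.8 to 121 CPM in the other 11 male and 10.1 to 21.2 CPM in the 12 female libraries. In WT male 2, 8 epididymis genes summed to 13506 CPM and the adipocyte genes had their lowest sum. A gene is termed called at an adjusted p under 0.05 in edgeR's quasi-likelihood test, adjusted over all genes tested. The labels do not state that each library is a separate animal, so p-values measure the spread between these samples, which may be technical in part.

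Promoter sequences of 32 of the 39 members were found in a table of RefSeq promoters (build GRCm38.p6, from 250 bases before to 50 bases after the annotated start). Only the 250 bases before the start were searched, on both strands, for CCAAT, the box bound by NF-Y. TTTGAA and TTCGAA were searched too, forms of the cell cycle homology region through which DREAM and MYBL2 act on mitotic genes. Of the 32 promoters, 23 (71.9%) held CCAAT, against 37.5% of the promoters of 27025 symbols. TTTGAA was in 9 (28.1%, against 18.3%) and TTCGAA in 3 (9.38%, against 1.55%). The E2F sequences TTTGGCGC and TTTCCCGC were in 2 (6.25%, against 0.485%) and 1 (3.12%, against 1.03%). Such a match describes letters, not binding. The 150 bases before the start are shown for 4 of the mitotic members with the smallest p in Y665H against Y665F females among those holding a motif, to show where in these promoters the letters fall. Capitals mark CCAAT or its reverse complement ATTGG and, in Kif11, TTCAAA, the reverse complement of TTTGAA.
Cenpe: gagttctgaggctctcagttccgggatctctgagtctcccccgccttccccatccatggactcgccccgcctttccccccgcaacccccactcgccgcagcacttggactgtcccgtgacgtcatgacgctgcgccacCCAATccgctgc
Ccnb2: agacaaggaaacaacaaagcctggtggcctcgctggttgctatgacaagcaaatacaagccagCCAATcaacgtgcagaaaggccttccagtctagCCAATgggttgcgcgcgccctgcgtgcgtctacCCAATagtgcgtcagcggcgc
Kif11: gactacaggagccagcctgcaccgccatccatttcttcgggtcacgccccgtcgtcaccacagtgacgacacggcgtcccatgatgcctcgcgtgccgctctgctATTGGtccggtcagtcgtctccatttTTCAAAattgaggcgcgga
Cenpa: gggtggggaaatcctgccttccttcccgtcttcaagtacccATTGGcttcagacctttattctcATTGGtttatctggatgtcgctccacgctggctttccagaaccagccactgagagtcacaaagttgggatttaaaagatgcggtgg
The stretch of Cenpe, a spindle motor of the centromere, lies at chr3:135212413-135212562 on the forward strand. That of Ccnb2, cyclin B2, lies at chr9:70421555-70421704 on the reverse strand and holds CCAAT at 87, 54 and 21 bases before the start. That of Kif11, the motor that pushes spindle poles apart, lies at chr19:37376232-37376381 on the forward strand. That of Cenpa, the histone variant of centromeres, lies at chr5:30666736-30666885 on the forward strand and holds ATTGG at 109 and 86 bases before the start. The promoters of E2f1, Tk1 and Birc5 held none of the 5 motifs in the 250 bases before the start.

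Levels were compared between genes only per kilobase of exon. In WT females, the order was led by the replication genes Pcna, the sliding clamp of DNA polymerase, at 27.8 ± 1.49 CPM per kb (SD, n = 4), and Mcm7, a subunit of the MCM helicase, at 9.40 ± 1.02. They were followed by Mcm3 at 5.85 ± 1.29 and E2f1, a transcription factor of S phase entry, at 5.40 ± 0.91. Mcm3 and E2f1 overlapped in their ranges, 4.16 to 7.19 and 4.29 to 6.51 CPM per kb. The lowest were Cdk1, the kinase that drives mitosis, at 0.72 ± 0.46, Ccne2, cyclin E2, at 0.53 ± 0.09, and Bub1, a kinase of the spindle checkpoint, at 0.52 ± 0.33. These last 3 did not differ beyond their spread.

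The libraries of a group differed widely in these genes. In WT females, the ratio of the highest to the lowest of the 4 libraries had a median of 3.13 over the members, against 1.33 over the 14838 genes whose mean reached 1 CPM. It exceeded 4 in 17 of the 39 members and in 2.89% of those genes. WT female 3 was the lowest of its group in 38 members (31.9% of all genes). The highest was WT female 4 in 21 members (20.4%) and WT female 2 in 18 (28.3%). Mki67, the proliferation marker, was at 30.7, 62.0, 11.0 and 55.1 CPM in WT females 1 to 4 (39.7 ± 23.4, SD). Top2a, the topoisomerase that untangles chromosomes, was at 18.0, 34.1, 7.26 and 36.0 CPM. Libraries 2 and 4 were thus high, and library 3 low, in both.

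The spread differed by role. The median ratio in WT females was 5.43 for mitotic cyclins and kinases, 3.90 for the centromere and 3.61 for the spindle. It was 1.91 for licensing and 1.62 for DNA synthesis. Ccnb2, a cyclin that activates CDK1, had the largest ratio, 9.14, with 2.90, 4.69, 0.591 and 5.41 CPM. Pcna had the smallest, 1.13, with 41.6, 43.1, 39.5 and 44.8 CPM. WT female 3 had 37.2 M gene counts. Its summed levels of other marker lists were also the lowest of its group for epithelium (59.3 CPM, against 82.6 to 171), T and NK cells (13.5, against 14.9 to 20.0), macrophages (963, against 972 to 1342) and endothelium (692, against 784 to 875). It was below all 3 others in 4 of 8 epithelial, 9 of 13 T and NK cell, 6 of 9 macrophage and 2 of 4 endothelial genes. The part of these cells in the member levels was not tested. Its adipocyte sum, 20516 CPM, lay inside the range of the other 3. The sum of 5 progenitor genes went the other way and was highest in WT female 3 (1231 CPM, against 1013 to 1126).

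Other groups also had 1 library at an end. Y665F female 3 was the highest of its group in 28 members (45.3% of all genes) and Y665F female 4 the lowest in 28 (15.7%). Y665H female 3 was the lowest in 32 (17.8%). Among males, Y665F male 1 was the highest in 35 members (27.5% of all genes), Y665H male 1 in 33 (26.6%) and WT male 4 in 31 (31.0%). Over these groups the members' median ratio lay between 1.51 in Y665F males and 2.63 in WT males, and over all genes it lay between 1.33 and 1.69. Epithelial genes reached 1378 CPM in Y665F female 3, against 101 to 270 CPM in the other 3, and its adipocyte sum was the lowest of that group at 10994 CPM. All 8 epithelial genes were highest in it. The part of these cells was not tested.

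**Figure D1:**
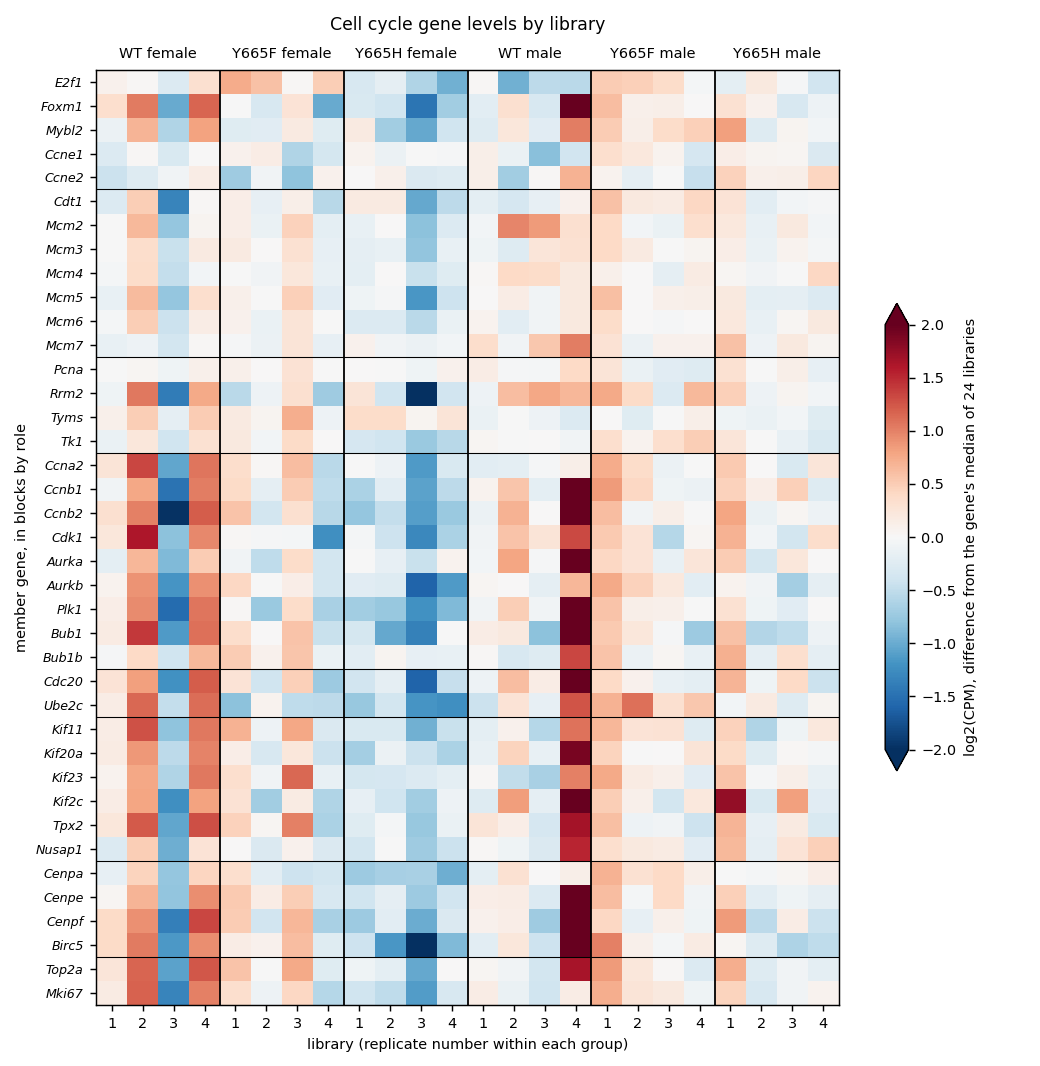
Level of each of the 39 members (rows, in blocks by role) in each of the 24 libraries (columns), as the difference of log2(CPM) from the gene's median over all libraries, with colours ending at -2 and 2. WT female 3 is low in 38 members, and WT male 4 is over 2 times the mean of the other WT males in 21 members, none of them a licensing gene.

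WT male 4 stood above the other WT males in part of the members. The ratio of its CPM to the mean of WT males 1 to 3 had a median of 2.13 over the members, against 1.02 over all genes. It exceeded 2 in 21 members (9.37% of all genes) and 4 in 11 members (4.74%), and 24 members were above all 11 other male libraries. These are values of 1 library, given without a test, and the last count has no share over all genes beside it. The ratio exceeded 2 in 7 of the 9 mitotic cyclins and kinases, in Cdc20 and Ube2c, in 6 of 6 spindle and 3 of 4 centromere genes, and in 0 of 7 licensing and 0 of 4 DNA synthesis genes. By role, the median ratio was 5.05 for mitotic cyclins and kinases, 4.72 for Cdc20 and Ube2c, 4.34 for the centromere and 3.10 for the spindle. It was 1.20 for licensing and 1.04 for DNA synthesis.

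Kif2c, a motor that shortens microtubules at the centromere, had the largest ratio, 16.7. It was at 1.64, 3.48, 1.73 and 38.2 CPM in WT males 1 to 4. Bub1 was at 1.24, 1.28, 0.633 and 10.5 CPM, a ratio of 10.0. Aurka, the kinase of spindle poles, was at 2.99, 5.37, 3.08 and 27.1 CPM. In all 3 genes WT male 4 lay above every other male library. Mki67 was at 30.3, 25.0, 20.8 and 30.4 CPM, a ratio of 1.20. Ccna2, cyclin A2, was at 2.91, 2.94, 3.31 and 3.65 CPM, a ratio of 1.19. E2f1 had a ratio of 0.93 and Mcm2 of 0.79.

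The germ cell list moved in the same library. Of its 20 genes, 19 were above all other males in WT male 4. They included the meiotic genes Sycp1 (23.8 CPM, at most 0.256 in WT males 1 to 3) and Piwil1 (86.6, at most 0.384), and the sperm protamine Prm2 (229, at most 19.0). A list of 5 somatic testis genes summed to 129.7 CPM there, against 4.65 to 29.3 CPM in the other males. The next highest germ cell sum was that of Y665H male 1, 121 CPM, which also had the highest Kif2c of its group, 6.63 CPM, against 1.59, 3.45 and 1.67. The part of testis RNA in the member levels was not tested. Medians and named members that rest on WT males are given with and without WT male 4.

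**Figure D2:**
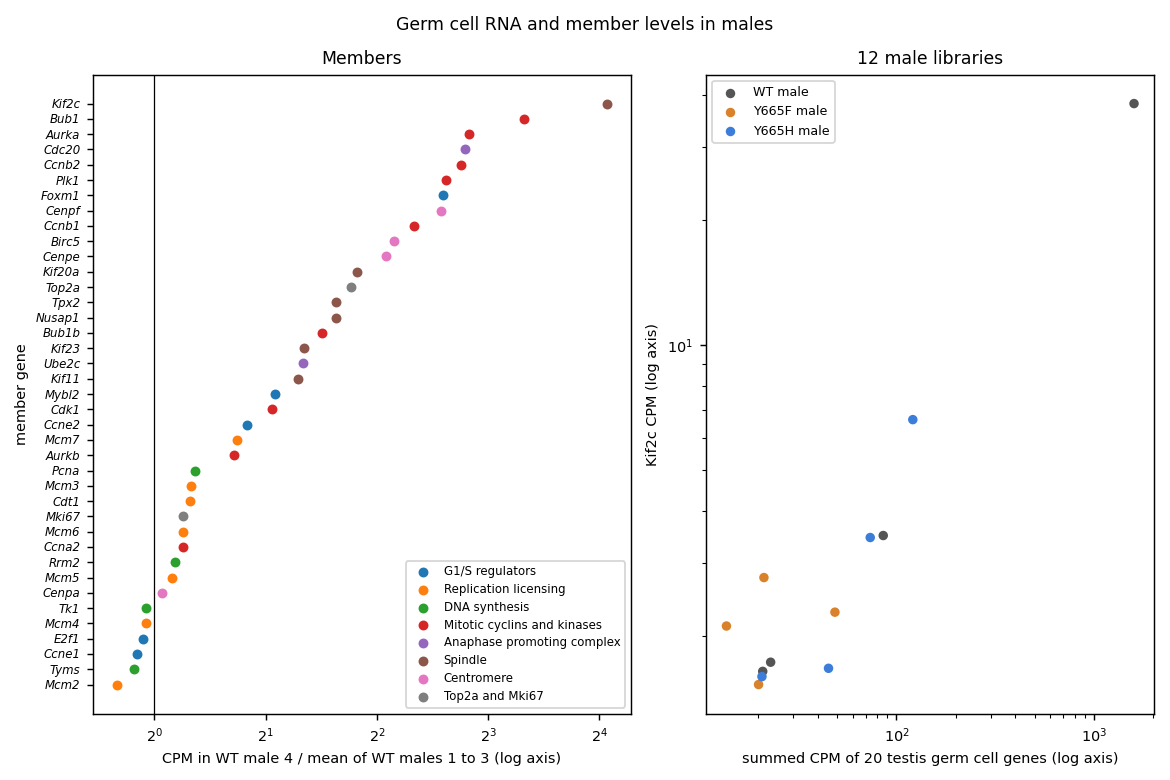
Left, CPM of each member in WT male 4 divided by the mean of WT males 1 to 3, on a log axis and coloured by role. Right, Kif2c CPM against the summed CPM of 20 testis germ cell genes in the 12 male libraries, both on log axes. Kif2c leads at 16.7, the licensing genes lie between 0.79 and 1.67, and WT male 4 lies apart from the other 11 libraries on both axes.

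In females, no member was called between either mutant and WT, and the groups overlapped in every member. On CPM scaled by TMM they did so too, where 7.26% of all genes were lower without overlap in Y665F and 6.52% in Y665H. All 39 members passed the filter on low counts in every comparison. For Y665H against WT, edgeR called 0 members (3.34% of all genes). DESeq2 called 7 (11.5% of all genes), all lower: Birc5, Cenpa, Foxm1, Kif11, Kif20a, Plk1 and Ube2c. At an unadjusted p under 0.05 there were 16 members, all lower, where 11.9% of all genes were lower by that mark. The median log2 fold change was -0.75 over the members and -0.00 over all genes, with 34 members below 0.

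Ube2c, the ubiquitin-conjugating enzyme of the anaphase promoting complex, had the smallest p. WT females had 2.66, 5.29, 1.72 and 5.17 CPM, and Y665H females had 1.42, 1.87, 1.06 and 1.02. The groups overlapped through WT female 3 and Y665H female 2. The log2 fold change was -1.45 (SE 0.39), with an adjusted p of 0.0729 in edgeR. Birc5, the survivin subunit of the chromosomal passenger complex, had 2.25, 3.53, 0.779 and 3.30 CPM in WT and 1.29, 0.769, 0.435 and 0.937 CPM in Y665H females, a log2 fold change of -1.49 (SE 0.48, adjusted p = 0.115). Its groups too overlapped only through the low WT female 3.

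Mki67 was at 20.9, 19.3, 12.7 and 22.0 CPM in Y665H females, against 30.7, 62.0, 11.0 and 55.1 in WT (log2 fold change -1.07, SE 0.45, adjusted p = 0.192). All 4 Y665H libraries were below WT females 1, 2 and 4 and above WT female 3. Pcna was at 42.2, 41.3, 39.5 and 44.2 CPM, with a log2 fold change of 0.00 (SE 0.08) and overlapping groups. By role, the median log2 fold change was -1.05 for mitotic cyclins and kinases, -0.96 for the centromere and -0.83 for the spindle, with no member above 0 in these 3 classes. It was -0.32 for licensing and -0.25 for DNA synthesis.

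This comparison turned on WT female 3. Without that library edgeR called 15 members, all lower in Y665H females, against 8.12% of all genes in either direction, and the median over the members was -0.99. The 15 were Birc5, Ccnb1, Ccnb2, Cenpa, Cenpe, Cenpf, Foxm1, Kif11, Kif20a, Kif23, Mki67, Plk1, Top2a, Tpx2 and Ube2c. Of all genes, 4.07% were called lower there. The 15 include no licensing gene and no gene of DNA synthesis. Among them, Ccnb2 had the smallest adjusted p (0.0196, log2 fold change -1.63, SE 0.25) and Birc5 the largest change (-1.78, SE 0.36). Leaving out any of the other 7 libraries gave 0 called members, with a member median between -0.84 and, without WT female 4, -0.49.

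For Y665F against WT in females, 0 members were called by edgeR (3.33% of all genes). DESeq2 called 1 (13.0% of all genes), Ube2c. In edgeR it was also the 1 member at an unadjusted p under 0.05, where 12.6% of all genes were lower by that mark. The median log2 fold change was -0.39 over the members and 0.02 over all genes, with 37 of 39 below 0. The Y665F comparisons share the WT libraries with those of Y665H, so the directions are not independent.

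Ube2c was at 1.36, 2.51, 1.68 and 1.66 CPM in Y665F females, a log2 fold change of -1.17 (SE 0.39, adjusted p = 0.117). Only WT female 3, at 1.72 CPM, reached into the Y665F range. Cdk1 was at 2.22, 5.83, 1.08 and 3.70 CPM in WT and at 1.94, 1.86, 1.85 and 0.815 CPM in Y665F females (log2 fold change -1.12, SE 0.50, adjusted p = 0.197). Foxm1, the transcription factor of the mitotic genes, was at 6.51, 10.6, 2.55 and 11.5 CPM and at 5.13, 4.11, 6.22 and 2.55 CPM (-0.93, SE 0.45, adjusted p = 0.225). Kif20a, a motor of the final cell division step, was at 4.83, 7.93, 3.01 and 8.61 CPM and at 4.73, 3.46, 5.08 and 3.23 CPM (-0.70, SE 0.33, adjusted p = 0.212). In each of these genes WT females 2 and 4 lay above all Y665F libraries, and WT female 3 lay among or below them.

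Rrm2, a subunit of the enzyme that makes DNA building blocks, was at 4.37, 9.59, 1.75 and 7.78 CPM in WT and at 3.19, 4.32, 5.73 and 2.82 CPM in Y665F females (-0.69, SE 0.48, adjusted p = 0.374). Cenpf, a protein of the outer kinetochore, was at 9.77, 14.1, 2.88 and 18.8 CPM and at 10.5, 5.71, 11.8 and 4.75 CPM (-0.62, SE 0.52, adjusted p = 0.471). Both pairs of groups overlapped. The licensing genes had a median of -0.11, and Mcm6, an MCM helicase subunit, was at 17.3, 25.2, 13.2 and 19.7 CPM against 19.0, 16.3, 21.3 and 17.7 CPM (-0.16, SE 0.19). Without WT female 3 the member median was -0.68, without WT female 2 it was -0.19 and without WT female 4 it was -0.21, still with no member called.

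**Figure D3:**
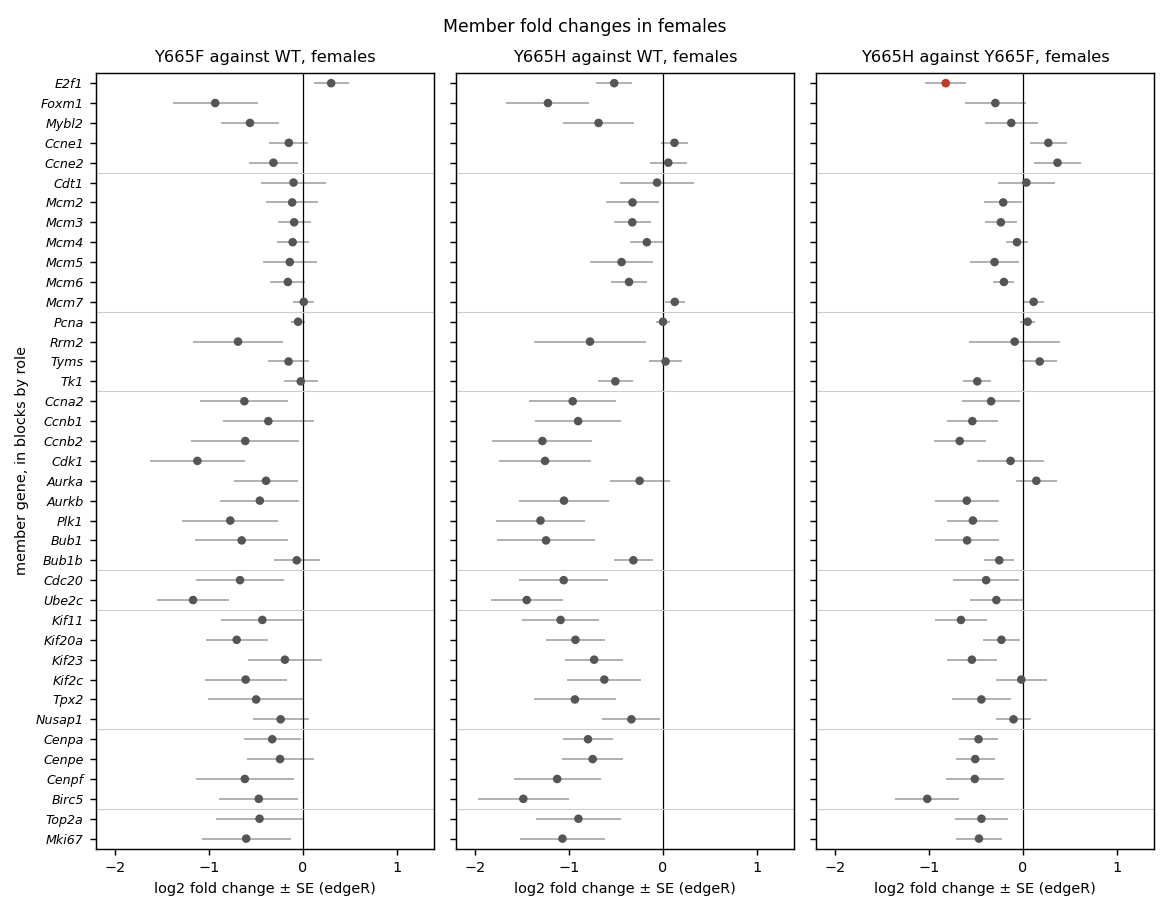
Log2 fold change with its standard error for each member (rows, in blocks by role) in the 3 comparisons between female groups, 4 libraries a group. Red marks the 1 called member, E2f1 in Y665H against Y665F. In Y665H against WT, the medians of the licensing and DNA synthesis classes lie nearer to 0 than those of the mitotic, spindle and centromere classes. Single genes overlap, as DNA synthesis reaches down to -0.78 and the spindle class up to -0.34.

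E2f1 was the 1 member called between the mutants, lower in Y665H than in Y665F females. It was at 27.3, 24.7, 16.7 and 23.1 CPM in Y665F females (23.0 ± 4.54, SD) and at 13.1, 14.6, 10.8 and 8.41 CPM in Y665H females (11.7 ± 2.70). No Y665H library reached the lowest Y665F library. The log2 fold change was -0.82 (SE 0.22), with an adjusted p of 0.0366 in edgeR. WT females lay between, at 17.4, 16.7, 13.5 and 20.5 CPM, and overlapped with both mutants. Against WT, the log2 fold change was 0.30 (SE 0.19) for Y665F and -0.52 (SE 0.19) for Y665H.

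The call was lost on leaving out any of 6 libraries. The adjusted p was 0.0973 without Y665F female 1, 0.0804 without Y665F female 2 and 0.0809 without Y665F female 4. It was 0.0569 on leaving out Y665H female 1, 0.0938 on leaving out Y665H female 3 and 0.0660 on leaving out Y665H female 4. Over all alternatives it ran from 0.0042, in DESeq2, to 0.0973, and the fold change stayed between -0.97 and -0.68. The summed CPM of 13 T and NK cell genes was 45.9 to 69.4 in Y665F females, 13.5 to 20.0 in WT and 9.48 to 32.9 in Y665H females. Within Y665H females, library 4 had the highest of these sums, the lowest macrophage sum (699 CPM) and the lowest E2f1. Within Y665F females the order went the other way. Library 1 had the highest and library 3 the lowest T and NK cell sum, macrophage sum and E2f1. Macrophage genes summed to 1353 to 2163 CPM in Y665F females, against 699 to 1040 in Y665H females. Of these, 10 of the 13 T and NK cell genes and 6 of the 9 macrophage genes were higher in Y665F without overlap, and none was at 0 in any of these libraries. Cd3e, a subunit of the T cell receptor complex, was at 3.12 to 4.58 CPM in Y665F and 0.622 to 2.27 CPM in Y665H females. Adipocyte genes summed to 10994 to 18368 CPM in Y665F females and to 21360 to 24982 CPM in Y665H females, without overlap. The part of these cells in E2f1 was not tested.

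E2f1 was the 1 of 39 members called in Y665H against Y665F females, where 17.4% of all genes were called and 8.59% were called lower. A further 5 had an unadjusted p under 0.05, all lower in Y665H: Tk1, Birc5, Cenpe, Ccnb2 and Kif11. Of all genes, 16.9% were lower at such a p. The median log2 fold change was -0.29 over the members and -0.03 over all genes, with 32 members below 0. Tk1, the thymidine kinase of the salvage pathway, was at 8.68, 7.33, 9.96 and 7.67 CPM in Y665F and at 6.04, 5.79, 4.54 and 5.20 CPM in Y665H females (-0.49, SE 0.15, adjusted p = 0.0560). Birc5 was at 1.90, 1.83, 2.64 and 1.46 CPM in Y665F females (-1.02, SE 0.34, adjusted p = 0.0736). The groups did not overlap in either gene. Both were called on scaling by library totals, without Y665H female 1, and in DESeq2, where 25.2% of all genes were called.

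Groups were free of overlap in 7 members, all lower in Y665H: E2f1, Tk1, Birc5, Mcm6, Kif11, Kif23 and Cenpa. Of all genes, 21.5% were free of overlap in that direction. On TMM-scaled CPM, 3 remained, E2f1, Tk1 and Cenpa, against 12.0% of all genes. Kif11 was at 7.00, 4.02, 7.35 and 3.53 CPM in Y665F and at 3.51, 3.51, 2.21 and 3.18 CPM in Y665H females (-0.66, SE 0.28, adjusted p = 0.138). Ccnb2 was at 3.48, 1.80, 2.92 and 1.60 CPM and at 1.37, 1.67, 1.09 and 1.39 CPM (-0.67, SE 0.28, adjusted p = 0.130), and it overlapped by 1 library. Cdc20, an activator of the anaphase promoting complex, was at 5.02, 3.16, 5.80 and 2.51 CPM and at 3.20, 3.68, 1.37 and 3.01 CPM (-0.39, SE 0.35, adjusted p = 0.468), with wide overlap. In Mcm6, Y665H females had 14.8, 14.8, 12.3 and 16.2 CPM (-0.20, SE 0.11, adjusted p = 0.240). The members' median was -0.16 without Y665H female 3, -0.17 without Y665F female 3 and -0.47 without Y665H female 1.

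**Figure D4:**
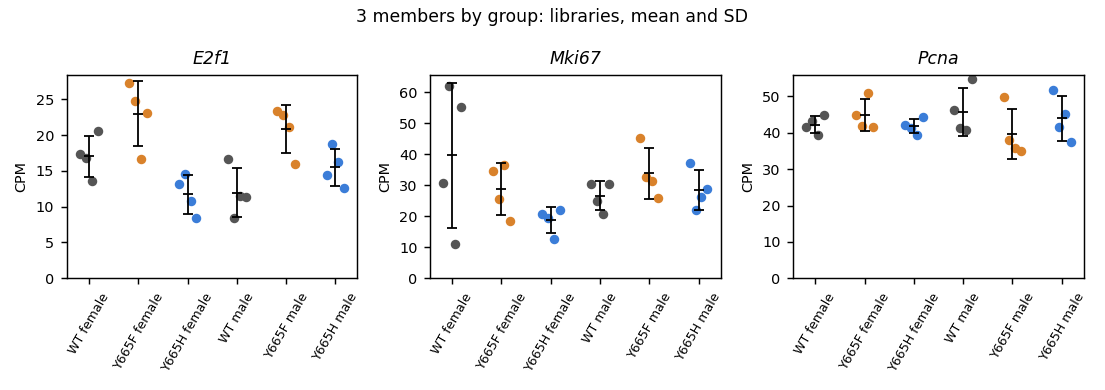
CPM of E2f1, Mki67 and Pcna in the 24 libraries, with the mean and SD of each group of 4. E2f1 is lower in Y665H than in Y665F females without overlap, Mki67 spreads from 11.0 to 62.0 in WT females, and Pcna stays between 35.1 and 54.9 throughout.

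In males, no member was called between either mutant and WT, and none of the tested genes was either (0.0% in both). The spread was wide. The common coefficient of variation in edgeR was 47.1% for Y665F and 46.6% for Y665H against WT, where females had 26.6% and 21.7%. One fit of all 24 libraries called 13.2% and 1.18% of all genes in these comparisons of males. An absence of calls therefore does not show an absence of change. For Y665F against WT males, edgeR gave 3 members at an unadjusted p under 0.05, all higher: Cdt1, E2f1 and Tk1. Of all genes, 9.23% were higher at such a p. DESeq2 called Cdt1 and E2f1, where it called 1036 of 16240 genes (6.38%). E2f1 was at 16.6, 8.47, 11.4 and 11.3 CPM in WT males and at 23.4, 22.8, 21.1 and 15.9 CPM in Y665F males (0.87, SE 0.26, adjusted p = 0.217). The groups overlapped by WT male 1 and Y665F male 4. Without WT male 1 E2f1 was called (1.08, adjusted p = 0.0494), as were 3.43% of all genes. Cdt1, which loads the MCM complex, was at 4.84, 4.41, 4.98 and 5.90 CPM and at 8.38, 6.35, 6.24 and 7.44 CPM (0.57, SE 0.16, adjusted p = 0.208). Tk1 was at 7.80, 7.61, 7.62 and 7.29 CPM and at 9.66, 7.99, 9.63 and 10.7 CPM (0.39, SE 0.14, adjusted p = 0.253). The fold changes without WT male 4 were 0.81 for E2f1, 0.62 for Cdt1 and 0.35 for Tk1, with adjusted p-values of 0.305, 0.261 and 0.333.

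Cdt1 and Tk1 were the members without overlap between these groups, both higher, against 5.59% of all genes in that direction. T and NK cell genes summed to 63.0 to 106 CPM in Y665F males and to 20.7, 161, 40.1 and 20.6 CPM in WT males 1 to 4. In WT male 2, Klrb1c made up 117 CPM and Zap70 26.8, while Cd3e was at 1.37 CPM. Of the 13 genes, 11 were higher in all Y665F than in all WT males, among them Cd3e at 3.66 to 5.91 CPM. The part of these cells was not tested. The members' median log2 fold change was -0.16, and 0.24 without WT male 4, with 29 of 39 then above 0. Over all genes it was -0.01 in the full comparison and 0.01 without WT male 4.

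For Y665H against WT males, edgeR called 0 members, with 0 at an unadjusted p under 0.05 (11.4% of all genes), and DESeq2 called 0, where it called 64 of 16406 genes (0.39%). The median was -0.30 over the members and -0.05 over all genes. Without WT male 4 the members' median was 0.04, with 22 above 0. The smallest p was that of Mcm2, an MCM helicase subunit, at 12.3, 25.3, 23.1 and 16.1 CPM in WT and 14.8, 11.5, 14.7 and 12.4 CPM in Y665H males (-0.51, SE 0.23, adjusted p = 0.402). WT males 2 and 3 were high, and the groups overlapped. These 2 libraries also had the highest epididymis and epithelial sums of the WT males, 13506 and 3223 CPM and 1187 and 643 CPM, and all 8 genes of each list were higher in them than in WT males 1 and 4. The part of these cells was not tested. E2f1 was at 14.4, 18.7, 16.2 and 12.6 CPM in Y665H males (0.38, SE 0.26, adjusted p = 0.449). Mcm2 had -0.60 (adjusted p = 0.491) and E2f1 0.34 (adjusted p = 0.579) without WT male 4.

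WT male 4 does not enter the comparison of Y665H with Y665F males, but markers of other tissues varied there too. Germ cell genes summed to 121 CPM in Y665H male 1, and epididymis genes to 1607 CPM in Y665H male 3 and 953 CPM in Y665F male 4. T and NK cell genes summed to 63.0 to 106 CPM in Y665F and to 11.8 to 38.2 CPM in Y665H males. The part of these tissues and cells was not tested. In this comparison, edgeR called 0 members, against 1.03% of all genes, and DESeq2 called 0, against 6.74%. At an unadjusted p under 0.05 there were 7, all lower in Y665H: Ube2c, Cdt1, Tk1, Birc5, E2f1, Mcm5 and Cenpa. Of all genes, 11.1% were lower at such a p. Ube2c was at 3.88, 5.15, 3.00 and 3.50 CPM in Y665F and at 2.31, 2.72, 2.00 and 2.49 CPM in Y665H males (-0.76, SE 0.23, adjusted p = 0.146), without overlap. E2f1 had a log2 fold change of -0.47 (SE 0.19, adjusted p = 0.241). Ccne2 was free of overlap in the other direction, with 1.96, 1.63, 1.86 and 1.35 CPM in Y665F and 2.57, 2.01, 2.03 and 2.49 CPM in Y665H males. Of all genes, 6.17% were free of overlap downward and 6.29% upward. The members' median was -0.19, against -0.02 over all genes, and it was -0.06 without Y665F male 1 and -0.31 without Y665H male 1.

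Between WT males and WT females, edgeR called 0 members, against 13.1% of all genes. At an unadjusted p under 0.05, E2f1 and Tyms were lower and Mcm7 was higher in males, where 14.4% of all genes were lower and 19.1% higher. DESeq2 called E2f1, and 24.7% of all genes. E2f1 had a log2 fold change of -0.65 (SE 0.24, adjusted p = 0.0977). Without WT male 1 it was called (-0.90, adjusted p = 0.0137), as were 31.1% of all genes. Tyms, thymidylate synthase, had 5.59, 7.34, 4.60 and 7.34 CPM in females and 4.72, 5.18, 4.83 and 4.31 CPM in males of the WT (-0.53, SE 0.21, adjusted p = 0.120). Mcm7 was at 27.7, 28.7, 23.9 and 31.1 CPM in females and at 39.1, 29.2, 44.5 and 62.7 CPM in males (0.50, SE 0.20, adjusted p = 0.129). WT male 2 reached into the female range of Mcm7, and without it Mcm7 was called (0.65, adjusted p = 0.0398), as were 9.90% of all genes. Without WT male 4, E2f1 had -0.60, Tyms -0.46 and Mcm7 0.32, with adjusted p-values of 0.174, 0.195 and 0.257.

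WT male 4 set the direction of several members between the sexes. Kif2c had a log2 fold change of 1.98 (SE 1.05, adjusted p = 0.222) and, without WT male 4, of -0.23. Cdc20 went from 0.85 to -0.39 and Cenpe from 0.33 to -0.46. The members' median went from -0.04 to -0.44, with 34 of 39 then below 0, against 0.04 and 0.02 over all genes. Ccna2, with 4.01, 8.45, 1.64 and 7.02 CPM in WT females, had -0.88 (SE 0.45, adjusted p = 0.206), or -0.92 without WT male 4. Mki67 had -0.73 (SE 0.46, adjusted p = 0.297), or -0.77 without it, and Top2a -0.27 (SE 0.57, adjusted p = 0.774), or -0.89 without WT male 4. WT female 3 moved the same median to -0.28 when left out.

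The difference between the sexes in the mutant effect was tested as an interaction on 16 libraries. For Y665F, edgeR and DESeq2 called 0 members (0.0% of all genes in edgeR, 6.89% in DESeq2). Ube2c was the 1 member with an unadjusted p under 0.05, at 1.56 (SE 0.57, adjusted p = 0.159), where 9.19% of all genes were higher at such a p. Its value was 1.98 (adjusted p = 0.149) without WT male 4. For Y665H both called 0 members (0.0178% of all genes in edgeR, 4.09% in DESeq2), and 4 had such a p, all with a higher fold change in males: E2f1, Cenpa, Mki67 and Ccna2. Of all genes, 9.15% were higher at such a p. E2f1 had 0.92 (SE 0.34, adjusted p = 0.213), and without WT male 1 it was called (1.17, adjusted p = 0.0298), as were 10.7% of all genes. Without WT male 4, E2f1 had 0.86 (adjusted p = 0.251). The members' medians were 0.18 for Y665F and 0.26 for Y665H. Without WT male 4 they were 0.57 and 0.90, with 35 and 36 of 39 above 0, and without WT female 3 they were 0.45 and 0.47. The same WT libraries enter both interactions.

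**Figure D5:**
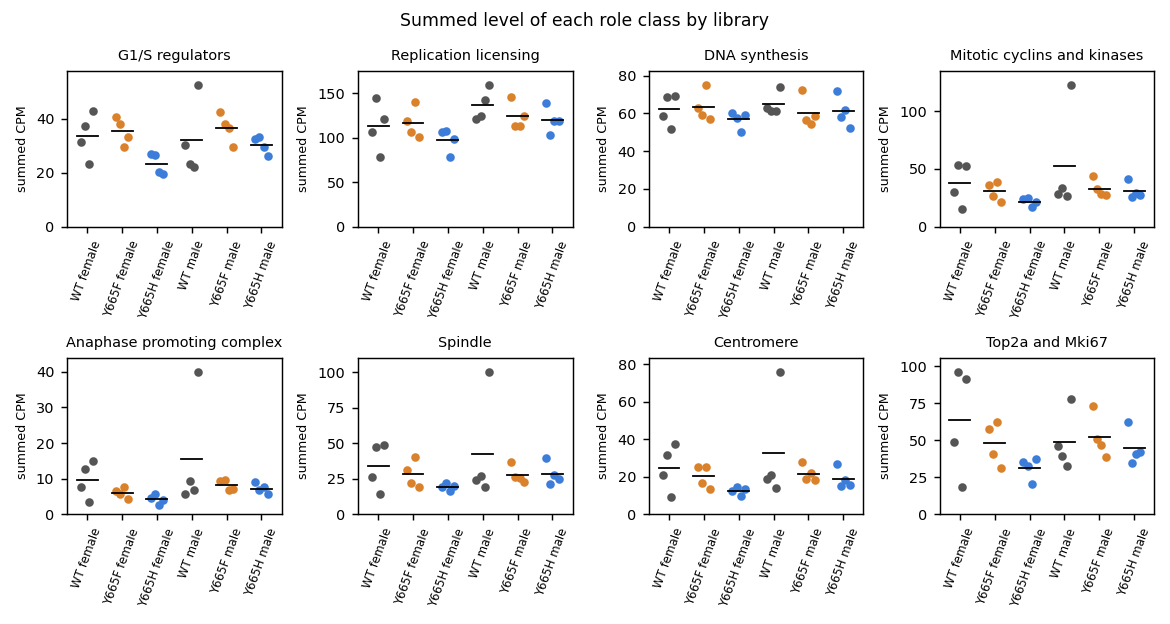
Summed CPM of each role class in the 24 libraries by group, with a line at the mean of 4 libraries. WT male 4 lies apart in the mitotic, anaphase promoting complex, spindle and centromere panels, and WT female 3 is the lowest WT female in all 8.

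Other genes of the cycle were taken from 4 lists that hold no member: 35 of replication, 57 of mitosis, 13 G1 cyclins, kinases and their inhibitors, and 17 of E2F, RB and DREAM. No list had a called gene in any comparison of a mutant with WT. In Y665H against WT females, the median log2 fold change was -0.70 for the mitosis list, with 5 of 57 above 0. It was -0.09 for replication, -0.02 for the G1 list and 0.05 for the E2F list. In the mitosis list, 15 genes had an unadjusted p under 0.05, all lower, where 11.9% of all genes were lower by that mark. WT female 3 had the lowest summed CPM of that list in its group, 457, against 659 to 964. In Y665H against Y665F females, 2 of the 35 replication genes, 1 of the 56 tested mitosis genes, 1 of the 13 G1 genes and 1 of the 17 E2F genes were called, against 17.4% of all genes.

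Cdkn1a, the p21 inhibitor of cyclin-dependent kinases, was lower in Y665H than in Y665F females. It was at 27.1, 18.8, 31.2 and 21.6 CPM in Y665F and at 12.9, 15.3, 8.02 and 7.24 CPM in Y665H females, without overlap (-1.02, SE 0.27, adjusted p = 0.0345). Kif14, a motor of the final division step, was also lower (-0.99, SE 0.28, adjusted p = 0.0428), as was Fam111a, a protease that helps replication past obstacles (-0.54, SE 0.13, adjusted p = 0.0271). Ung, the glycosylase that removes uracil from DNA (0.44, SE 0.11, adjusted p = 0.0330), and Lin9, a subunit of the complex shared by DREAM and MYBL2 (0.46, SE 0.13, adjusted p = 0.0460), were higher. In males, Cdc25b, a phosphatase that activates CDK1, was lower in Y665H than in Y665F, at 17.6, 17.0, 16.7 and 17.7 CPM against 23.4, 22.4, 23.6 and 25.9 CPM (-0.51, SE 0.08, adjusted p = 0.0258). Tfdp2, a partner of E2F factors, was higher in WT males than in WT females (0.48, SE 0.13, adjusted p = 0.0475). Of all genes, 1.03% were called in that comparison of mutant males and 13.1% between the WT sexes. Each of these 7 calls was lost on leaving out any of 5 or more of the 8 libraries, with adjusted p-values up to 0.126. For Tfdp2 it was lost in all 8, among them WT male 4 (0.51, adjusted p = 0.0645).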

How the data were processed

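Ribosomal RNA was removed from total RNA and stranded libraries were sequenced as read pairs, per the labels' protocols. The submitters' processing notes name FastQC 0.11.9, Trimmomatic 0.36, STAR, SAMtools 1.9, Picard 2.9.2, HTSeq 0.9.1 and the genome build mm10. The strand setting of the counting is not given in the sources used here, so reads of overlapping or antisense genes may be mixed. The deposited values are raw read counts per gene symbol, 1 table a library. The 5 entries that name no gene (24.8 to 39.7% of counts) were left out.

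CPM were computed from the 24421 gene rows. Each pair of groups was tested on its 8 libraries, and interactions on 16, with edgeR 4.0.16 (limma 3.58.1, R 4.3.3): TMM scaling, filterByExpr and the quasi-likelihood F test, with Benjamini-Hochberg adjustment over all genes tested. Alternatives were DESeq2 1.42.0, library totals, no filter, 1 fit of all 24 libraries, a replicate block and leaving out each library. Lengths per gene were merged exons of GENCODE M21.

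The members, lists and tests were chosen with earlier results of these data known. Values per library are given for the members with the smallest p of each role class in 3 comparisons, plus Mki67 and Top2a, and for members that a result turns on. Other cell cycle genes are named where called, and 4 promoters are shown of the 6 the rule allows.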

Additional observations from a re-analysis of the deposited data

Results flagged for a closer look

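A library was singled out where its gap to the nearest library of its group was a larger share of the group's range than the 95% critical value of Dixon's test. Of 198 group values examined, 28 met this. The critical value flags about 1 in 20 of independent values, but sums and their own members are not independent. The count of 28 can therefore not be set against chance. The values covered only part of the members.

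WT male 4 held most of them, always as the highest of its group. Its summed CPM was 702.8 for all 39 members (group median 337), 73.8 for DNA synthesis, 122.7 for mitotic cyclins and kinases, 40.0 for the anaphase promoting complex pair, 100.1 for the spindle and 75.7 for the centromere. Its testis germ cell sum was 1596 CPM. Among the members examined, those far above the other WT males in this library were Kif2c (38.2 CPM), Cenpf (41.1), Cdc20 (34.2), Foxm1 (30.0), Cenpe (23.4), Ccnb2 (18.6), Kif20a (16.2), Birc5 (7.12) and Top2a (47.9). Bub1, Plk1, Aurka, Nusap1, Ccnb1 and Bub1b were not among the values examined, and WT male 4 was the highest WT male in each.

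Y665F male 1 stood above its group in the sum of all members (451.9 CPM, group median 340), in Birc5 (3.47), Foxm1 (7.93) and Mcm6 (23.0). Y665H male 1 did so in Ccnb2 (4.02 CPM), Cenpe (7.61) and Top2a (25.2). Y665F female 4 lay below its group in Cdk1 (0.815 CPM, group median 1.86).

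Among marker sums, WT male 2 was far above its group in T and NK cell genes (161.3 CPM), Y665H male 3 in somatic testis genes (27.8) and in epididymis genes (1607), and WT female 4 in epididymis genes, at the low value of 1.04 CPM.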

How the results depend on the processing

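Members called by edgeR were 0 in 8 of the 9 comparisons and 1 in Y665H against Y665F females. DESeq2 called 1 in Y665F against WT females, 7 in Y665H against WT females, 2 in Y665F against WT males, 3 in Y665H against Y665F females and 1 in WT males against WT females. One fit of all 24 libraries called 1 in Y665F against WT males (13.2% of all genes) and 4 between the WT sexes (34.9%). Library totals called 3 in Y665H against Y665F females (20.7% of all genes). They moved the median of all genes from 0.02 to 0.15 in Y665F against WT females, from -0.03 to -0.18 in Y665H against Y665F females, from 0.04 to 0.19 between the WT sexes and from -0.06 to -0.24 in the Y665F interaction, and the members' medians moved with them: to -0.25, -0.45, 0.12 and -0.03.

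On leaving out a library, called members ran from 0 to 15 in Y665H against WT females, from 0 to 2 in Y665H against Y665F females, and from 0 to 1 in Y665F against WT males, between the WT sexes and in the Y665H interaction. They stayed at 0 in the other 4 comparisons. Members without overlap ran from 0 to 3 in Y665F against WT females, 0 to 25 in Y665H against WT females, 2 to 5 in Y665F against WT males, 0 to 3 in Y665H against WT males, 7 to 18 in Y665H against Y665F females, 2 to 8 in Y665H against Y665F males and 0 to 4 between the WT sexes, where groups of 3 overlap less readily. Shares over all genes are not given for these left-out settings, so the counts cannot be read as particular to the members. On TMM-scaled CPM, members without overlap were 3 in Y665H against Y665F females, all lower (12.0% of all genes). Between the WT sexes there was 1, Tyms, lower in males (11.5% of all genes). Mcm6 in Y665F against WT females ran from -0.30 to 0.0179, the latter without WT female 2. Between the WT sexes, Cenpe ran from -0.46 to 0.57, Cdc20 from -0.39 to 1.16 and Kif2c from -0.23 to 2.34, each lowest without WT male 4. The cause was not tested.

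Counts over all genes moved more: leaving out a library gave 67 to 747 (521 in full) in Y665F against WT females, 20 to 1269 (516) in Y665H against WT females, 0 to 570 (0) in Y665F against WT males, 0 to 1 (0) in Y665H against WT males, 1554 to 2838 (2689) in Y665H against Y665F females, 10 to 220 (164) in those males, 251 to 5134 (2079) between the WT sexes, and 0 to 1686 (0) and 0 to 1844 (3) in the Y665F and Y665H interactions. The other settings gave 390 to 2030, 32 to 1782, 0 to 2261, 0 to 203, 1583 to 3897, 0 to 1078, 825 to 5987, 0 to 1152 and 1 to 689, in the same order.

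Nothing in the labels says that replicate numbers pair libraries. Same-numbered libraries deviated together with correlations from -0.42 to 0.75, which at 4 libraries a group cannot settle whether they were paired. The main fits used no pairing. With a replicate block the members called were the same in number, 1 in Y665H against Y665F females (E2f1, adjusted p = 0.0364) and 0 elsewhere. Over all genes the block called 32 in Y665H against WT females and 0 in Y665H against Y665F males. Depth limits the lowest members most, at 14 counts.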
